A study of Gallus gallus with 9 samples.

Results

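The genes that liver cells use to burn fat and to respond to fasting were followed across all birds of a selenium feeding experiment in chickens. The 9 genes are PPARA, PPARGC1A, CPT1A, CPT2, ACADL, EHHADH, ECI2, PDK4 and ANGPTL4. Every probe set of the array that the platform annotation ties to 1 of these symbols alone was taken, which gave 16 of the 38535 probe sets in the table. All 9 genes, of 13009 with a symbol of their own, had at least 1. The study measured liver RNA of ROSS308 commercial meat chickens, 1 array per bird, at an age of 35 days. The 4 control birds ate a standard diet without added selenium, and the 5 Se-yeast birds ate that diet with selenized yeast (Sel-Plex) that added 0.5 mg of selenium per kg. Both groups ate freely from 1 day of age. The labels name no strain difference, allele or other agent between the groups, and they give neither the sex of the birds nor the time from the last meal to slaughter.

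Fatty acids enter mitochondria bound to carnitine and are then shortened in cycles of beta-oxidation, while peroxisomes shorten very long and unusual chains. In mammals the nuclear receptor PPARA, helped by the coactivator PPARGC1A, binds fatty acids released during fasting and raises the genes of both routes. The kinase PDK4 then blocks the entry of pyruvate into the citric acid cycle, and ANGPTL4, a secreted protein, slows the release of fatty acids from lipoproteins by lipoprotein lipase. In birds the liver is also the main organ of fatty acid synthesis, so the same tissue holds both directions of fat metabolism.

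The values are MAS5 signals, which give the brightness of a probe set on a linear scale after each array was set to a common mean. Median signals of the arrays lay between 100.8 and 125.1, and the arrays correlated with each other at r = 0.933 to 0.956. The samples carried the transcripts of liver cells. Hepatocyte markers measured above the filter (7 of 9 listed) were bright, with a summed signal of 271797 to 333967 in control and 330042 to 513376 in Se-yeast birds. All 7 had a higher mean in Se-yeast livers, at a median log2 fold change of 0.32, but none passed limma's test described below (smallest adjusted p = 0.999). The summed ranges overlapped, and Se-yeast replicates 1 and 2 were highest, at 513376 and 422708. Of 6 skeletal muscle markers, 5 were on the array and 1 lay above the filter, with a signal of 75.3 to 233 over the 9 birds. The 5 adipocyte markers summed to 2938 to 4541 in control and 3808 to 6261 in Se-yeast birds, and the 8 macrophage markers to 69523 to 88593 and 87049 to 105293. No signal is an exact 0 on this scale, and no detection calls were used. In a whole liver sample, fewer cells of a type and less RNA per cell cannot be told apart.

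Diet was compared to ask which liver transcripts differ when selenium is added. Of the 16 probe sets, 15 passed the filter on low signals, which asked for a mean signal of at least about 64.7 over all birds, and 1 of CPT1A did not. None of the 15 passed limma's test at an adjusted p of 0.05, with adjusted p = 0.999 for each of them. Over all 23063 probe sets tested 0.026% passed. Taking the brightest probe set for each, 7 of the 9 genes were higher and 2 lower in Se-yeast birds, at a median log2 fold change of 0.22, against 0.02 over the 10382 genes tested. At an unadjusted p under 0.05 stood 4 of the 15 probe sets, or 26.7%, beside 4.67% of all probe sets, and these 4 belong to 3 genes, PPARGC1A, EHHADH and ECI2. This count was 1 without control replicate 1, when ECI2 alone remained, and 2 without Se-yeast replicates 4 and 5. A raised share was not particular to the members. On 1 probe set per gene, 4 of 7 hepatocyte, 2 of 8 macrophage and 0 of 5 adipocyte markers had an unadjusted p under 0.05. The members were chosen with earlier results of these data known, so these shares and medians are a description and not a test. All fold changes below are Se-yeast minus control on the scale log2(signal + 16), where the added constant understates changes of dim probe sets.

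**Figure D1:**
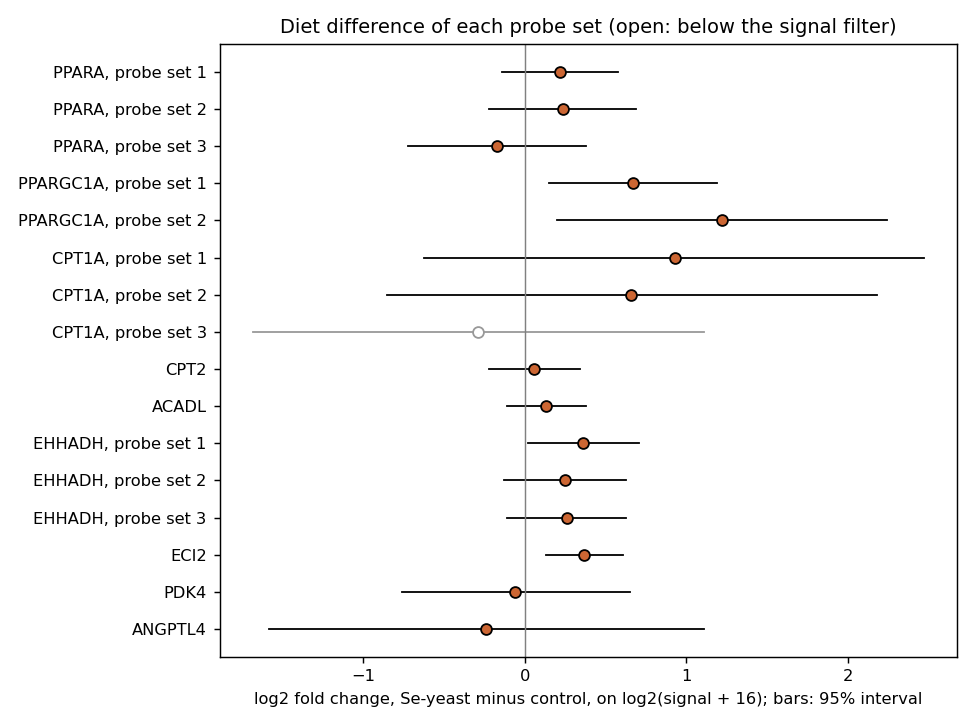
Log2 fold change (x axis, Se-yeast minus control, on log2(signal + 16)) of each of the 16 probe sets (y axis, brightest first within a gene), with bars for the 95% interval. The intervals of both PPARGC1A probe sets, of the brightest EHHADH probe set and of ECI2 lie above 0, and the widest are those of CPT1A and ANGPTL4. The open symbol is the CPT1A probe set below the signal filter.

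PPARA, the receptor itself, showed no difference between diets larger than its spread. On its brightest probe set the control birds, in the order of their replicate numbers, had signals of 2214, 2446, 1786 and 2154, and the Se-yeast birds 2955, 2018, 1949, 2754 and 2997. Se-yeast replicates 1, 4 and 5 lay above every control bird, while replicates 2 and 3 lay within the control range. Control birds averaged 2150 ± 273 (SD, n = 4) and Se-yeast birds 2535 ± 512 (SD, n = 5), a log2 fold change of 0.22 ± 0.17 (SE; limma adjusted p = 0.999). The probe sets of the gene did not agree in direction: the second stood at 0.24 ± 0.21 and the dimmest at -0.17 ± 0.25, with signals from 327 to 790 on the latter. Without Se-yeast replicates 4 and 5, a comparison chosen after the values were seen, the brightest probe set stood at 0.08.

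PPARGC1A, the coactivator that PPARA and other receptors recruit, had the largest unadjusted difference of the regulators. Its brighter probe set read 501, 1064, 908 and 790 in the control birds and 1588, 938, 1148, 1783 and 1037 in the Se-yeast birds. Replicates 1, 3 and 4 of the Se-yeast group lay above all controls, and the groups overlapped because control replicate 2 lay above Se-yeast replicates 2 and 5. The means were 816 ± 238 (SD, n = 4) and 1299 ± 367 (SD, n = 5), 1.59-fold apart, with a 95% interval of 1.11 to 2.28 (log2 fold change 0.67 ± 0.24, limma adjusted p = 0.999). The dimmer probe set gave 31.6, 152, 140 and 145 in control and 243, 124, 248, 731 and 216 in Se-yeast birds, a log2 fold change of 1.22 ± 0.47, and 0.78 ± 0.42 without control replicate 1. Both probe sets thus had control replicate 1 as the lowest bird and Se-yeast replicate 4 as the highest. Under the alternatives the brighter one kept a positive value, from 0.46 without control replicate 1 to 0.81 without control replicate 2.

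CPT1A, which loads fatty acids onto carnitine at the outer mitochondrial membrane and is the rate-limiting step of their entry, varied most. Its brightest probe set had signals of 499, 455, 242 and 455 in the control birds and 321, 406, 219, 2231 and 4012 in the Se-yeast birds. Only Se-yeast replicates 4 and 5 were high, and the other 3 Se-yeast birds lay between 219 and 406, below 3 of the 4 controls. The second probe set, which can also read related transcripts, showed the same birds apart, with 792 and 1203 in Se-yeast replicates 4 and 5 and 56.2 to 214 in the other 7 birds. The third lay below the filter at signals of 2.5 to 121 and did not follow this pattern, with 116 in Se-yeast replicate 4 and 2.6 in replicate 5.

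The group means of CPT1A therefore describe no single bird well. They were 413 ± 115 (SD, n = 4) for control birds against 1438 ± 1662 (SD, n = 5), with a log2 fold change of 0.93 ± 0.71 (limma adjusted p = 0.999). The spread within groups lay at percentile 99.8 of all tested probe sets, and the log2 level had an SD of 0.46 among control birds and 1.81 among Se-yeast birds. Without Se-yeast replicate 5 the fold change was 0.34, without replicate 4 it was 0.55, and without both it was -0.36 ± 0.28. The second probe set gave -0.59 ± 0.34 without both.

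CPT2, the partner enzyme that frees fatty acids from carnitine inside the mitochondrion, varied little, with a spread within groups at percentile 8.8 of all tested probe sets. Its 1 probe set, which can also read related transcripts, read 4843, 4100, 5072 and 5399 in control and 4495, 5619, 5273, 4426 and 5527 in Se-yeast birds. The groups overlapped nearly fully, and the 2 birds with high CPT1A lay near opposite ends for CPT2. Its log2 fold change was 0.06 ± 0.13, with a 95% interval of -0.22 to 0.34.

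ACADL, a dehydrogenase that takes the first step of beta-oxidation on long chains, was similarly even, at percentile 5.2, on a probe set that can also read related transcripts. The control birds had 30900, 29211, 34654 and 33237 and the Se-yeast birds 39249, 40067, 32716, 31334 and 32793. Se-yeast replicates 1 and 2 were above all other birds, and the other 3 lay within the control range. The log2 fold change was 0.13 ± 0.11 (95% interval -0.11 to 0.38). With quantile normalization of the arrays it was 0.05, its lowest value under the alternatives. Replicates 1 and 2 of the Se-yeast group were also highest for the hepatocyte marker TTR, a plasma carrier of thyroid hormone, on its brightest probe set. They read 69795 and 65300 there, against 34614 to 46914 in the other birds. On this probe set TTR was 1 of the 2 genes most like ACADL over the 9 birds (r = 0.946). The nearest gene was GAPDH (r = 0.957), which is not on the hepatocyte list. GAPDH read 63510 and 58671 in Se-yeast replicates 1 and 2, against 39729 to 48482 in the other birds. A dimmer TTR probe set read 2885 and 3528 in these birds and 3190 in control replicate 2, so it did not set both apart. The part of hepatocyte markers in the ACADL levels was not tested.

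**Figure D2:**
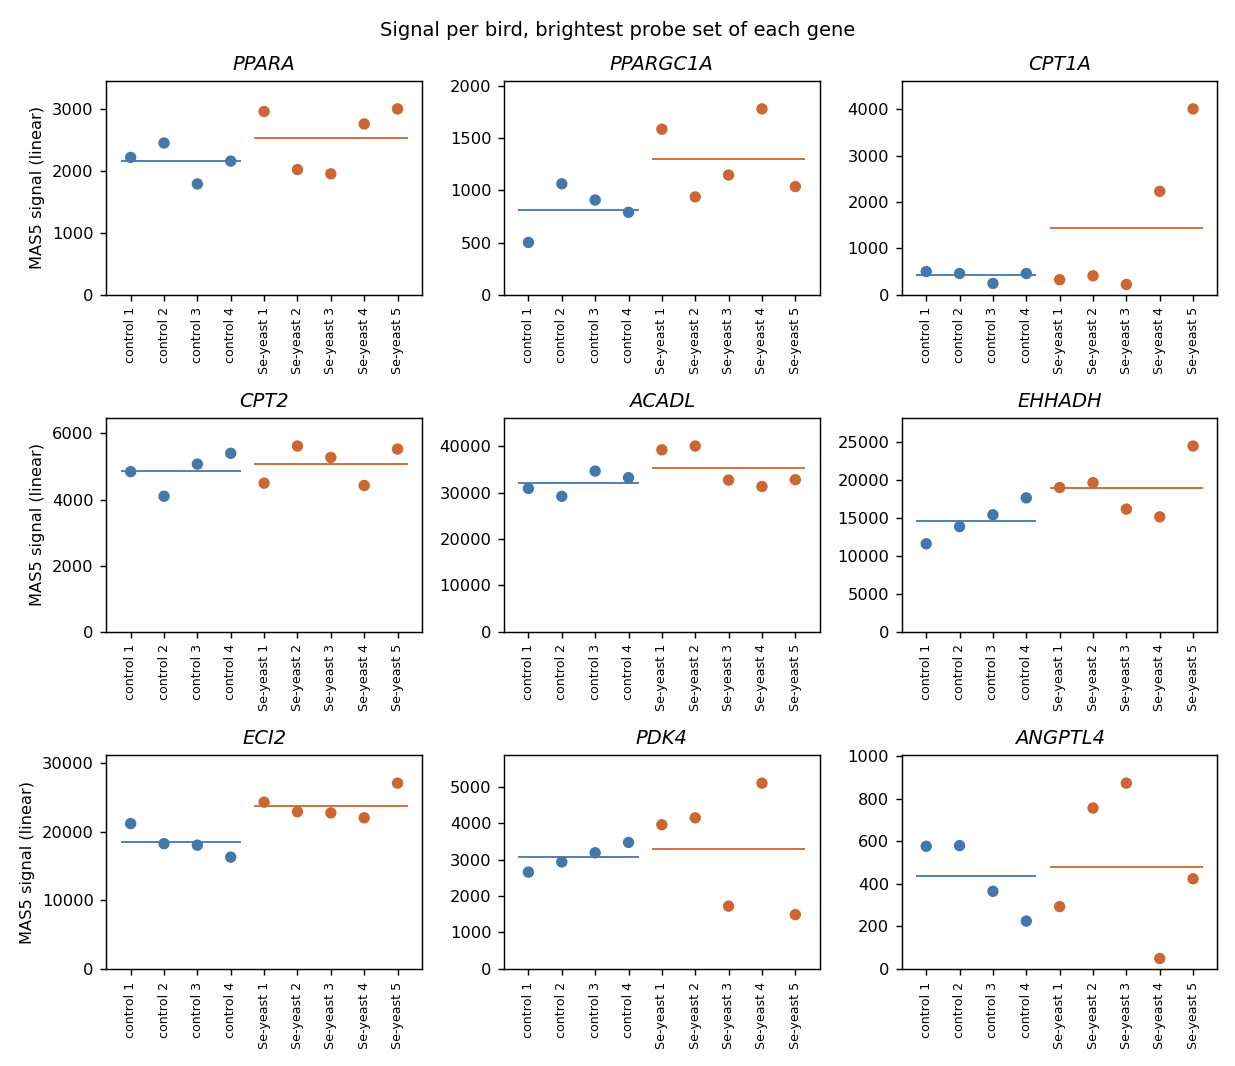
MAS5 signal (y axis, linear, from 0) of the brightest probe set of each gene in each of the 9 birds (x axis), with horizontal lines for group means. CPT1A is high in Se-yeast replicates 4 and 5 at 2231 and 4012 and at or below 499 in the other birds, whereas every Se-yeast bird of ECI2 lies above every control bird.

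The 2 peroxisomal members had small positive values that did not pass. ECI2, an isomerase that moves double bonds so that unsaturated fatty acids can be shortened, was the member with the smallest unadjusted p. Its probe set read 21157, 18234, 18012 and 16271 in control and 24272, 22885, 22715, 22001 and 27045 in Se-yeast birds. All 5 Se-yeast birds were above all 4 controls, which 0.889% of all tested probe sets also showed in this direction and 1 of the 15 tested here. The means were 18418 ± 2026 (SD, n = 4) and 23784 ± 2000 (SD, n = 5), 1.29-fold apart (95% interval 1.09 to 1.53, limma adjusted p = 0.999). The log2 fold change of 0.37 ± 0.11 stayed between 0.31 and 0.44 under all 20 alternatives, and was 0.34 without Se-yeast replicates 4 and 5.

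EHHADH, the peroxisomal bifunctional enzyme that hydrates and then oxidises the fatty acyl chain, has 3 probe sets. The brightest gave 11609, 13877, 15438 and 17672 in control and 19041, 19685, 16186, 15165 and 24516 in Se-yeast birds. Se-yeast replicates 1, 2 and 5 were above all controls, and replicates 3 and 4 were not. Its log2 fold change was 0.36 ± 0.16 (limma adjusted p = 0.999). The other probe sets stood at 0.25 ± 0.18 and 0.26 ± 0.17. On these, Se-yeast replicate 5 was highest, at 15680 and 15791, and replicate 4 next, at 12342 and 11388, above every other bird. Without those 2 birds the brightest stood at 0.33 and the others at 0.01 and 0.05, so the probe sets differ in how far their value rests on these birds. Of the 3, 2 can also read related transcripts, the brightest among them. The hepatocyte markers, of which none passed as given above, moved in the same direction as ECI2 and EHHADH. So did all 8 macrophage and all 5 adipocyte markers, of which none passed either. The part of these markers was not tested.

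PDK4, which turns off pyruvate oxidation, had close group means and a wide spread with Se-yeast. The control birds had signals of 2658, 2938, 3189 and 3473, and the Se-yeast birds 3958, 4148, 1723, 5101 and 1490. No Se-yeast bird lay within the control range: 3 were above it and replicates 3 and 5 below it. The log2 fold change was -0.06 ± 0.32, and the log2 level had an SD of 0.16 among control birds and 0.80 among Se-yeast birds. The 2 birds with high CPT1A were the highest and the lowest for PDK4. The sign of the PDK4 difference changed when single birds were left out.

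ANGPTL4 also spread widely. Its 1 probe set read 577, 580, 365 and 225 in control and 293, 757, 874, 48.9 and 424 in Se-yeast birds. Se-yeast replicate 4, the second highest for CPT1A, was the lowest for ANGPTL4, and replicates 2 and 3 were the highest. The log2 fold change was -0.24 ± 0.62, and 0.38 without Se-yeast replicate 4. The spread within groups lay at percentile 99.5 of all tested probe sets.

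**Figure D3:**
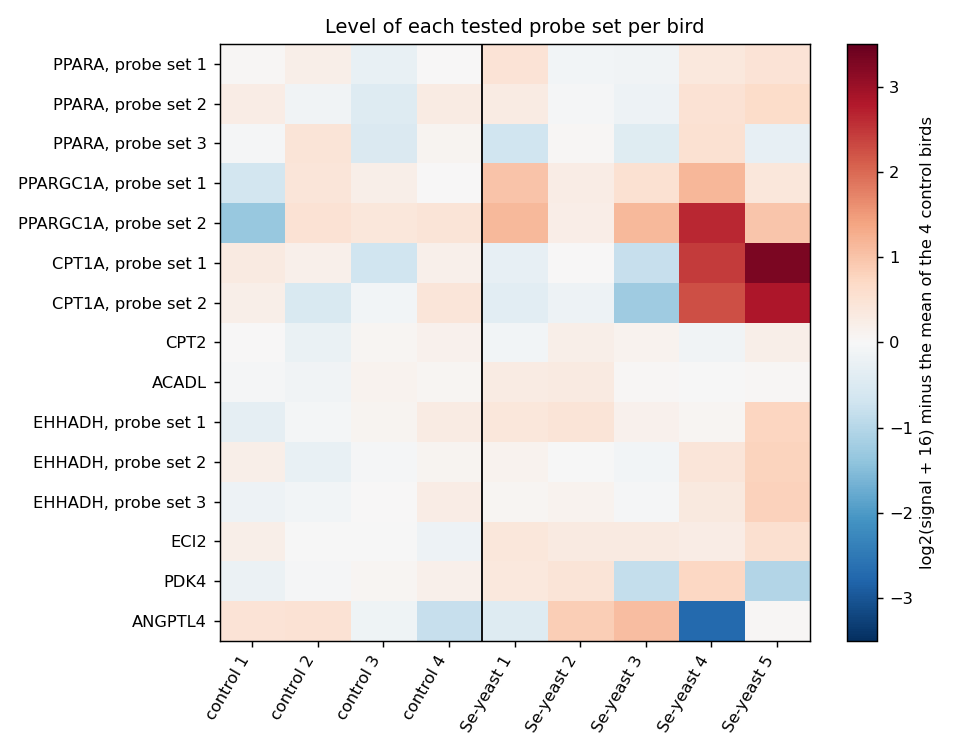
Level of the 15 tested probe sets (rows) in each bird (columns), as log2(signal + 16) minus the mean of the 4 control birds, red above and blue below. The strongest colours are those of Se-yeast replicates 4 and 5 for CPT1A and of Se-yeast replicate 4 for the dimmer PPARGC1A probe set and for ANGPTL4.

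The birds thus did not order alike for all 9 genes. Se-yeast replicates 4 and 5, the 2 birds with high CPT1A, differed from each other for PDK4, ANGPTL4 and CPT2. All pairs of the 9 genes, and each gene with the mean level of the fatty acid synthesis list, were correlated over the 9 birds, 45 relations in all. None passed after Benjamini-Hochberg adjustment, with a smallest adjusted exact permutation p of 0.604 for Pearson's r. With 1 bird left out, at most 1 of the 45 passed. PDK4 with the synthesis mean had r = 0.37 over all 9 birds (Spearman's rho = 0.50, exact permutation p = 0.326 and 0.178, adjusted p = 0.604 for r). Without Se-yeast replicates 3 and 5, the birds farthest from the PDK4 median, its r was -0.38. This pair passed without Se-yeast replicate 4 (r = 0.90, Spearman's rho = 0.95, n = 8, exact permutation p = 0.000893 and 0.00114, adjusted p = 0.0402 for r). That adjustment covers the 45 relations of this run and not the other runs with 1 bird left out. The synthesis mean also sets Se-yeast replicates 4 and 5 apart. Among the other 7 birds, a set chosen after the values were seen, r of PDK4 with this mean was 0.84 (rho = 0.93, n = 7, exact permutation p = 0.00833 and 0.00675, not adjusted). PPARA with CPT1A passed without Se-yeast replicate 1, among birds that fall into 2 clusters for CPT1A, so that r is not given.

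For CPT1A, Se-yeast replicates 4 and 5 form a cluster apart from the rest, so no r of CPT1A with another member is given over all birds. Over the 7 birds other than Se-yeast replicates 4 and 5, its r was 0.37 with PPARA (rho = 0.54, exact permutation p = 0.427 and 0.213) and 0.22 with the synthesis mean (rho = 0.18, exact permutation p = 0.622 and 0.703). PDK4 and ANGPTL4 had r = -0.58 over the 9 birds (rho = -0.50, exact permutation p = 0.106 and 0.178, adjusted p = 0.604 for r), and r = -0.67 without the 2 birds farthest from the PDK4 median, Se-yeast replicates 3 and 5. ACADL and EHHADH had r = 0.55 and rho = 0.75 (exact permutation p = 0.125 and 0.0255, adjusted p = 0.604 and 0.602), and r = 0.48 without Se-yeast replicates 1 and 2.

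Genes that work next to CPT1A were read in the same 2 birds, and not all of them moved with it. SLC22A5, which imports carnitine into the cell, had signals of 7664, 9276, 14092 and 11809 in control and 10558, 13768, 15251, 25130 and 32759 in Se-yeast birds. CRAT, the carnitine acetyltransferase, read 2914 to 3769 in control and 3101, 3507, 4910, 5759 and 6704 in Se-yeast birds. These were the 2 genes with the smallest p among 20 measured for mitochondrial beta-oxidation, at log2 fold changes of 0.78 ± 0.30 and 0.51 ± 0.21 (limma adjusted p = 0.999 for both), and both had Se-yeast replicates 4 and 5 as the highest birds. A second SLC22A5 probe set, which can also read related transcripts, read 4700 and 6266 in these 2 birds and 1112 to 1720 in the other 7. The gene's remaining probe set, a dim one, did not set both birds apart, with 174 and 98.6 against 66.0 to 164. ACSL1, which activates long-chain fatty acids with coenzyme A, was chosen after its values were seen: it read 4367 to 7057 in control birds, 4007 to 5446 in Se-yeast replicates 1 to 3, and 10312 and 12263 in replicates 4 and 5. SLC25A20, the carnitine-acylcarnitine carrier, was also chosen after its values were seen and did not follow. It read 8685, the lowest of all birds, in Se-yeast replicate 4 and 10682 in replicate 5, against 9031 to 11404 in control birds. Most of the 20 mitochondrial genes did not follow either. On the probe set counted for each, only SLC22A5, CRAT, ACSL1, MCEE and HADHB had Se-yeast replicates 4 and 5 as the 2 highest birds.

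Several genes of fat synthesis, though not the whole list, lay the other way in these 2 birds. ME1, the malic enzyme that supplies reducing power for synthesis, read 15554 to 26669 in control birds, 17000 to 22666 in Se-yeast replicates 1 to 3, and 5444 and 6519 in replicates 4 and 5. FASN, fatty acid synthase, read 35026 to 46087 in control birds, 42360 to 65726 in Se-yeast replicates 1 to 3, and 11908 and 14258 in replicates 4 and 5. A second FASN probe set had 6061 and 6409 in these birds and 31545 to 54630 in the other 7. SCD, the desaturase, had 605 and 526 in those birds and 1805 to 6658 in the other 7, and ACACA, which makes malonyl coenzyme A, the inhibitor of CPT1 enzymes, had 5299 and 1051 against 7460 to 13939. FASN, SCD and ACACA were chosen after their values were seen. ACSBG2, an acyl coenzyme A synthetase also chosen after its values were seen, read 677 and 642 in Se-yeast replicates 4 and 5 and 4865 to 7524 in the other 7 birds. Other genes of the synthesis list were not lowest in these 2 birds. INSIG2 is on that list, but it holds back the activation of lipid synthesis genes. It read 11491 and 13949 in Se-yeast replicates 4 and 5 against 8213 to 13433 in the other 7. The acyltransferase DGAT2 read 191 and 134 against 15.4 to 144. The other DGAT2 probe set, also dim, had 57.7 and 73.3 in these birds, within the 47.4 to 100 of the rest. The desaturase FADS2 read 4512 and 2195 against 1760 to 7014, and SLC25A1, the citrate carrier, 25040 and 28836 against 22701 to 29975. These 4 were also chosen after their values were seen. No test was made between birds of the same diet, and what sets these 2 birds apart was not tested.

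**Figure D4:**
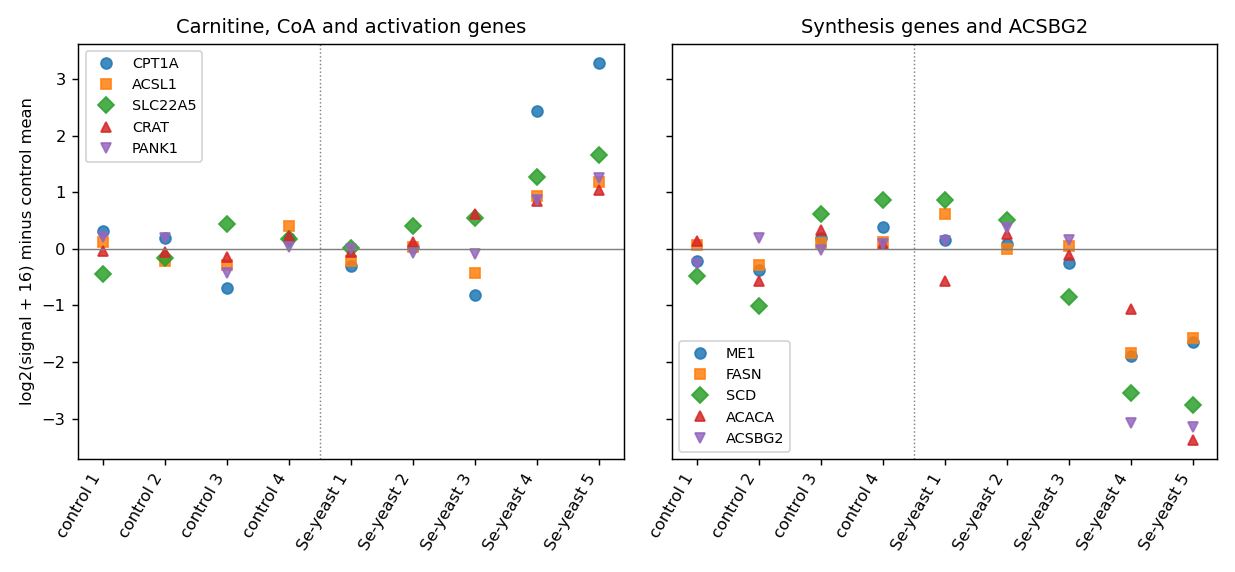
Level of 10 genes in each bird (x axis), as log2(signal + 16) minus the mean of the 4 control birds (y axis); the dotted line parts the diets. CPT1A, ACSL1, SLC22A5, CRAT and PANK1 are highest in Se-yeast replicates 4 and 5, and ME1, FASN, SCD, ACACA and ACSBG2 are lowest in the same birds. ACSL1, FASN, SCD, ACACA and ACSBG2 were chosen after their values were seen, and PANK1 as the gene nearest to CPT1A. Their likeness thus follows from the choice. Genes that did not follow, such as SLC25A20, ECI1, INSIG2 and FADS2, are not drawn.

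The wider pathway was counted on lists of textbook genes, 1 probe set per gene. Of 123 genes in 7 lists, none passed limma's test adjusted over all probe sets, beside 0.0385% of all 10382 genes, and 7 had an unadjusted p under 0.05, or 5.69% beside 5.04% of all genes. This count of 7 moved with the birds and the model: it was 1 without Se-yeast replicate 4, 2 without control replicate 1, 4 without control replicate 3 or Se-yeast replicate 5, 12 and 14 without Se-yeast replicates 1 and 2, 3 without an intensity trend and 23 with the W-chromosome gene as a covariate. Mitochondrial beta-oxidation had 12 genes higher and 8 lower at a median of 0.05, and peroxisomal beta-oxidation 10 higher and 7 lower at 0.01. After SLC22A5 and CRAT, the mitochondrial genes with the smallest p were MCEE, an epimerase for odd-chain products, at 0.38 and HADHB, a subunit of the trifunctional protein, at 0.31. The peroxisomal ones were the thiolase ACAA1 at 0.36, the lyase HACL1 at -0.31, the racemase AMACR at -0.23 and the transporter ABCD2 at 0.26. None of these differed beyond the spread between birds after adjustment.

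Among ketone body genes, 3 of 5 were higher at a median of 0.08, with the thiolase ACAT1 at 0.23, OXCT1 at 0.17, AACS at -0.36 and BDH2 at -0.08. For fatty acid uptake and activation, 8 of 17 genes were higher and 9 lower. The transporter SLC27A1 stood at 0.48 and the synthetases ACSL5 and ACSL3 at -0.49 and -0.70, each with an unadjusted p under 0.05 and adjusted p = 0.999. ACSL5 had 10880 and 11003 in Se-yeast replicates 4 and 5 against 15948 to 24264 in the other birds, and ACSL3 had 430 and 351 against 763 to 1266. Further ACSL5 probe sets stood at -0.54 and -0.74 (limma unadjusted p = 0.0105 and 0.00482, adjusted p = 0.999 for both). On the dim probe set of SLC27A1 the groups did not overlap, with all 5 Se-yeast birds at 172 to 220 above the 4 controls at 99.8 to 159. Those of ACAT1 did not overlap either, at 29023 to 38870 in Se-yeast and 24114 to 28963 in control birds. Over all tested probe sets 0.889% showed this in the same direction. The lipase PNPLA2, which starts the breakdown of stored fat, stood at 0.30.

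Partners and coregulators of PPARA had 15 of 18 genes higher at a median of 0.12. Over all 10382 genes tested, 5498 were higher, at a median of 0.02. On the 1 probe set counted per gene, NCOA2, a receptor coactivator, had the smallest p of all 123 genes. It read 538, 694, 700 and 672 in control and 794, 1060, 919, 777 and 894 in Se-yeast birds. Its groups did not overlap, which 0.889% of all tested probe sets also showed in this direction. Its log2 fold change was 0.44 ± 0.15 (limma adjusted p = 0.999). The gene's other 4 tested probe sets stood at 0.42, 0.06, 0.02 and -0.22, so its probe sets disagreed. The receptors PPARG and RXRG stood at -0.50 and 0.36 and the coactivator PPARGC1B at 0.47. The probe sets of PPARG and PPARGC1B were dim, at signals of 81.8 to 249 and 84.8 to 295. Fasting genes outside oxidation had 18 of 25 higher at a median of 0.16, and in order of unadjusted p the first were the insulin receptor INSR at 0.39, the glucose phosphatase G6PC at 0.86, IGFBP2 at 0.36 and FBP1, an enzyme of glucose synthesis, at 0.16.

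Per bird, the mean log2 level of the 20 mitochondrial genes ran from 12.06 to 12.12 in control birds and was 12.08, 12.17, 12.02, 12.24 and 12.44 in Se-yeast birds. The 17 peroxisomal genes averaged 11.91 to 12.09 in control and 11.99, 12.04, 11.94, 11.84 and 12.25 in Se-yeast birds, so replicate 4 was lowest and replicate 5 highest. The 23 synthesis genes averaged 12.13 to 12.47 in control and 12.40, 12.49, 12.10, 11.71 and 11.65 in Se-yeast birds. Se-yeast replicates 4 and 5 were thus lowest for synthesis. Their means were the highest for mitochondrial oxidation, a list that holds SLC22A5, CRAT and ACSL1, while ECI1, a mitochondrial isomerase, was lowest there, at 5912 and 6475 against 6578 to 9243, a gene chosen after its values were seen. On the synthesis list 16 of 23 genes were lower at a median of -0.21, beside 4884 of all 10382 genes tested. MTTP, which loads lipid onto lipoproteins, stood at -0.40, the acyltransferase GPAM at -0.47 and ME1 at -0.71.

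For each member the 2 genes with the most similar levels over the 9 birds were found among 10381 others, on the brightest tested probe set of each, as a description without a test. Because these genes were picked for their likeness, shared high and low birds follow from the choice. CPT1A was nearest to PANK1, the kinase that starts coenzyme A synthesis (r = 0.974), and LOC417013 (r = 0.972), over birds that include the 2 high ones. PANK1 read 16249 and 21372 in Se-yeast replicates 4 and 5 and 6642 to 10273 in the other birds. PDK4 was nearest to SNRK, a kinase related to the energy sensor AMPK (r = 0.970). SNRK had its lowest signals, 141 and 138, in Se-yeast replicates 3 and 5 and its highest, 267, in replicate 4.

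ECI2 was nearest to LEPR, the leptin receptor (r = 0.951), a dim probe set at 57.0 to 91.0 in control and 89.4 to 126 in Se-yeast birds, and to PLCL2 (r = 0.911). PPARA was nearest to MARC1 and LOC426355 (r = 0.939 and 0.932), PPARGC1A to COL18A1 and EHMT1 (0.928 and 0.920), and CPT2 to YRDC and EFEMP1 (0.964 and 0.886). ACADL was nearest to GAPDH and TTR (0.957 and 0.946), EHHADH to GJB1 and ATG4C (0.931 and 0.892), PDK4 after SNRK to SLC46A3 (0.944), and ANGPTL4 to OTUD3 and BEND3 (0.909 and 0.908). No gene of the 9 was among the nearest of another.

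**Figure D5:**
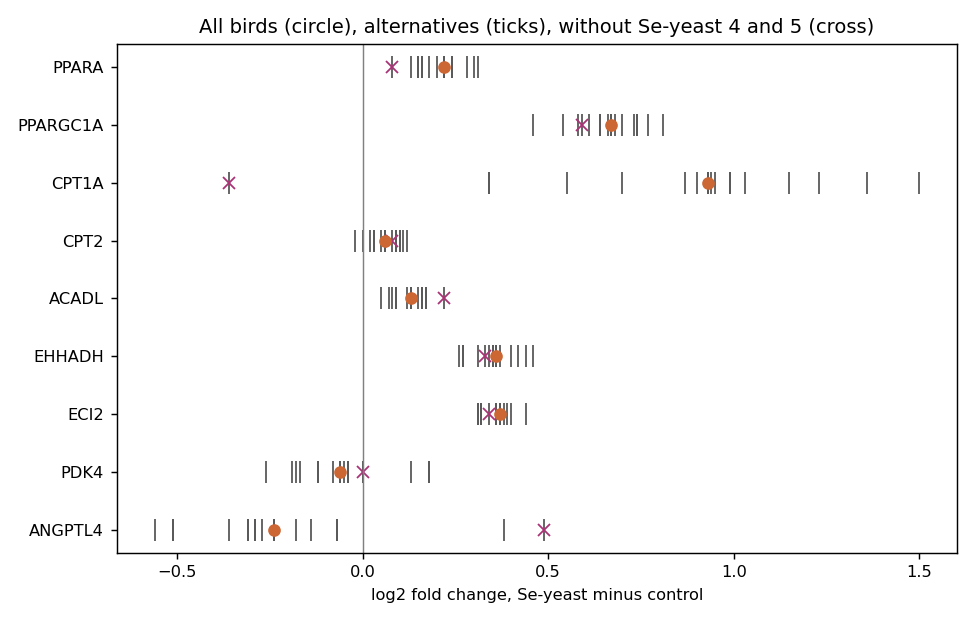
Log2 fold change (x axis, Se-yeast minus control) of the brightest probe set of each gene with all birds (circle), under each alternative (ticks) and without Se-yeast replicates 4 and 5 (cross). ECI2 stays between 0.31 and 0.44 and PPARGC1A between 0.46 and 0.81, while CPT1A runs from -0.36 to 1.5 and ANGPTL4 from -0.56 to 0.49.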

How the data were processed

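Per the submitters' processing notes, the deposited intensity values are MAS5 signals of an Affymetrix array, 1 column per bird; a version of MAS5 was not stated there. On each array the mean between the 2nd and 98th percentiles was 499.9, so changes are relative to the rest of the array. Of 38535 probe sets, 96 controls were left out, and 27168 had 1 symbol, 177 several and 11094 none; 26853 gene identifiers matched RefSeq. Probe sets with a mean log2(signal + 16) at or above the 40th percentile (6.33) entered a two-sided limma fit (version 3.58.1, R 4.3.3; lmFit, then eBayes with trend), adjusted by Benjamini-Hochberg over 23063 at 0.05, and the code was tested on simulated data. Intervals have 95% confidence. Arrays have no depth; their number limits precision. The labels call the replicates biological.

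The members and lists were chosen with earlier results of these data known. All members, up to 4 genes per list by smallest p, ME1 and the 2 nearest genes per member were open to naming by rule; any gene beyond that rule was picked with its values in view, as the text states beside it. Cell type lists without a diet comparison in the text had medians of -0.07 for 3 erythrocyte, -0.02 for 4 endothelial, 0.08 for 5 stromal and 0.43 for 2 bile duct genes, and of 0.26 for adipocyte, 0.18 for macrophage and 0.31 for muscle markers. No gene of them passed. Correlations used exact permutation of pairings, two-sided. Alternatives covered the pseudocount, filter, scaling, variance model, replicate block, a W-chromosome gene as covariate and leaving out birds.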

Additional observations from a re-analysis of the deposited data

Results flagged for a closer look

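Within-group outliers were looked for by Dixon's criterion in 76 groups of birds, and 4 had 1 bird far from the others; chance alone gives about 1 in 20. All 4 were control birds at the low end. On the dimmer PPARGC1A probe set, control replicate 1 stood at 5.57 on the log2 scale and the next bird at 7.28; without this bird the diet difference was 0.78 on that probe set and 0.46 on the brighter one. On the brightest CPT1A probe set, control replicate 3 stood at 8.01 and the next at 8.88. For FASN, control replicate 2 stood at 15.10 and the next at 15.44. For NCOA2, control replicate 1 stood at 9.11 and the next at 9.43. Se-yeast replicates 4 and 5 were not marked for CPT1A, because the criterion looks at 1 bird at a time.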

How the results depend on the processing

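No member probe set and no pathway gene passed under any of the 20 alternatives, of which the one without Se-yeast replicates 4 and 5 was chosen after seeing the data. PPARA, PPARGC1A, ACADL, EHHADH and ECI2 kept their direction under all 20. Without Se-yeast replicates 4 and 5, CPT1A turned to -0.36 and ANGPTL4 to 0.49. With 1 bird left out, CPT2 ran from -0.02 to 0.12, PDK4 from -0.26 to 0.18 and ANGPTL4 from -0.56 to 0.38. The count over all probe sets, 6, was 3 without an intensity trend and 3 to 7 with 1 bird left out (3 without control replicate 3 or Se-yeast replicates 1, 3 or 4), and the count of correlated pairs, 0, was 0 to 1. Replicate numbers did not pair the birds (correlation of deviations -0.11 to 0.04). Se-yeast replicate 5 has no control of the same number, so with the replicate block it adds nothing to the fold changes. PDK4 thus stood at 0.18 both with the block and without that bird, and the count with the block was 3. The W-chromosome gene was high in 1 Se-yeast bird. The cause of the other shifts was not tested. With 4 and 5 birds small changes of single genes can be missed.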
